A study of Caenorhabditis elegans with 2 samples.

Results

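The 9 genes eif-3.B, eif-3.C, eif-3.D, eif-3.E, eif-3.F, eif-3.G, eif-3.H, eif-3.I and eif-3.K encode subunits of the translation initiation factor eIF3 and were examined for peaks of HIM-1, the SMC1 subunit of cohesin. They were taken by name from the 19973 protein-coding genes of the annotation. The rule itself uses no ChIP-seq value, but the family was picked with earlier results of these data known. The eIF3-related genes egl-45 (subunit a), eif-3.J, eif-3.L and cif-1 (subunit m) are not among the 9. Below, the family means the 9 genes. Chromatin immunoprecipitation sequencing had been carried out on whole Caenorhabditis elegans hermaphrodites of strain YL576, a transgenic line in which HIM-1 carries a C-terminal GFP-FLAG tag. Both samples, biological replicates 1 and 2 of 1 group, were L4/young adult animals collected 51 hours after starved L1 larvae had been synchronized. The immunoprecipitation used anti-GFP according to the free text of the labels, although him-1 is what their antibody field lists. The labels do not state which promoter drives the tagged gene. The series compared no conditions, and an immunoprecipitation from untagged worms was not analysed here. Because the material was whole animals, signal cannot be assigned to a tissue.

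Cohesin is a ring-shaped complex that holds sister chromatids together and shapes chromosome loops in interphase. eIF3 is the largest of the initiation factors. It binds the small ribosomal subunit, recruits the mRNA and keeps the subunits apart until the start codon is found. In budding yeast the complex is reduced to a core of subunits a, b, c, g and i, while animals add further subunits, among them d, e, f, h, k, l and m.

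HIM-1 peaks were found at the promoters of 2 of the 9 genes, eif-3.C and eif-3.B, both encoding subunits of the yeast core. Core subunit a is encoded by egl-45, outside the 9, which had no promoter peak. Here a promoter peak has its summit at most 500 bp from a protein-coding transcript's 5' end and belongs to the authors' optimal list of 1797 reproducible peaks. The share was 22.2%, and 4.50% of all protein-coding genes had such a peak. The 95% Wilson interval of the share was 6.32 to 54.7. It covers counting error only and treats the genes as independent draws, which genes taken by name are not. Another 5 genes, eif-3.D, eif-3.E, eif-3.G, eif-3.H and eif-3.I, had only weaker promoter entries, which occur in the authors' lists that keep background entries. At eif-3.F and eif-3.K no list had an entry, either inside the gene or within 1000 bp of its 5' end. With that wider window the optimal count was still 2 of 9, against 7.04% of all protein-coding genes. No test was made of these counts.

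The sequence around the summit is shown for eif-3.B, which had an optimal peak, for eif-3.D and eif-3.G, which had weaker entries, and, as a contrast, for eif-3.K, which had none. Each stretch holds 151 bases of ce11 (RefSeq copy of WBcel235), read 5' to 3' on the strand of the gene. The first 3 are centred on the summit of the pooled list, at II:14795091-14795241 (plus strand), III:8971721-8971871 (minus strand) and II:8442392-8442542 (plus strand). The stretch for eif-3.K, at V:12953678-12953828 (plus strand), is centred 249 bp upstream of the 5' end, the median position of the other sites. None of the 4 stretches overlaps a protein-coding gene. Capitals mark GCGCAA on either strand.
eif-3.B: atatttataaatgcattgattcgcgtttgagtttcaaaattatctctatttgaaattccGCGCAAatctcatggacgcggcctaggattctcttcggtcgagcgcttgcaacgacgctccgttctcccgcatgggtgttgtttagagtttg
eif-3.D: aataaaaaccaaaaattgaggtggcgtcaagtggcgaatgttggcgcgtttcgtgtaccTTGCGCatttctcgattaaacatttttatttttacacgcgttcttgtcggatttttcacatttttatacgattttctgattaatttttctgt
eif-3.G: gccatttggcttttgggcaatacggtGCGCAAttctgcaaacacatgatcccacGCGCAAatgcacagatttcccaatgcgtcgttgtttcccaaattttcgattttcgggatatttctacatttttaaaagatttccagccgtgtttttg
eif-3.K: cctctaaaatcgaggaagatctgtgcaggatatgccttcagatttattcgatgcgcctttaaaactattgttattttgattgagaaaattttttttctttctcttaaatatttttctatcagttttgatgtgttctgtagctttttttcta

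The stretches at the entries carried GCGCAA, and the stretch at eif-3.K did not. This hexamer was picked by eye from the printed sequences, so its presence in them is a description. Within 100 bp of the summit it occurred at 4 of the 7 genes with an entry, once at eif-3.B and eif-3.D and in 2 copies at eif-3.C and eif-3.G. Of the genes with an entry whose sequence is not printed, eif-3.C had it and eif-3.E, eif-3.H and eif-3.I did not. The hexamer occurred at 17.2% of all 763 optimal promoter summits and at 9.70% of the 3885 pooled promoter summits. In windows of that size placed 249 bp upstream of all protein-coding genes the share was 5.14%. The count of 4 of 7 cannot be compared with these shares, because it includes the stretches from which the hexamer was picked. Of 6 motifs listed with the analysis, GAGAGAGA, GGGCGG (Sp1-like), TTTCGCGC (E2F-like), CTGCGTCTC and CACGTG (E-box) occurred at 0 of the 7 sites on either strand. At the position upstream of eif-3.F, which has no entry and overlaps the gene wbp-2, GAGAGAGA occurred once. Those motifs were found, in the same order, at 5.23%, 7.98%, 2.16%, 5.48% and 3.91% of pooled promoter summits and at 9.31%, 12.7%, 3.41%, 11.3% and 3.93% of optimal promoter summits. The sixth, TTTCAG, which resembles worm splice acceptor sites, was at 4 of the 7 sites, at 30.0% of pooled promoter summits and at 21.1% of optimal promoter summits. The shares describe letters in a window and say nothing of which factor binds.

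GC content within 100 bp of the summit differed among the 7 sites. It was 41.3% at eif-3.B, 40.8% at eif-3.G, 39.3% at eif-3.C, 37.8% at eif-3.I, 36.8% at eif-3.H, 34.3% at eif-3.E and 32.8% at eif-3.D. All of these were below the median of 44.3% at optimal promoter summits, whose quartiles were 38.8% and 49.8%. The median at pooled promoter summits was 38.8%, and at the positions 249 bp upstream of all protein-coding genes it was 33.8%. At those positions eif-3.F had 30.8% and eif-3.K 31.3%, the lowest of the 9 genes. The eif-3.F position overlaps the gene wbp-2, so its value does not describe intergenic sequence alone.

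Among the core subunits, eif-3.C had the highest signal of the family. Its product forms the centre of the complex together with subunit a and contacts initiation factors eIF1 and eIF5. The gene lies at I:9976426-9979662 on the minus strand, and its peak at I:9979676-9980145 had the summit 249 bp upstream of the 5' end, in intergenic sequence. The signal value, which is the authors' own score for an entry and has no stated scale, was 247 in the pooled list, 139 in replicate 1 and 97.8 in replicate 2. These were ranks 218 of 12228, 272 of 16213 and 279 of 15469, so the site stood near the top of every list. When the 3664 protein-coding genes that had a pooled promoter entry were ordered by their highest one, eif-3.C was 106th. The next upstream gene, sys-1, which encodes a beta-catenin, lies on the same strand, and its end is 400 bp away. No other protein-coding 5' end was within 1000 bp of the summit.

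The eif-3.B peak was weaker and less even between replicates. Its product is a scaffold subunit that holds subunits g and i. The gene lies at II:14795404-14798235 on the plus strand, with a peak at II:14794931-14795400 and a summit 238 bp upstream, and no other coding 5' end within 1000 bp. The signal was 135 in the pooled list, 89.8 in replicate 1 and 44.3 in replicate 2. In replicate 1 it ranked 848th, whereas in replicate 2 it ranked 1783rd, close to the limit of the 1797 highest entries at a signal of 44.1. Its deposited −log10 q-value was 3.38 in replicate 1 and 2.03 in replicate 2. In the optimal list it ranked 1041st of 1797, with a signal below the list's median of 144 and above its lowest value of 102.0.

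The remaining core genes among the 9, eif-3.G and eif-3.I, had weak entries. At eif-3.G (II:8442767-8444175, plus strand), which encodes an RNA-binding subunit, the pooled entry at II:8442232-8442701 had a signal of 58.0 and a summit 300 bp upstream. The replicates gave 30.7 and 28.7, ranks 8728 and 4602, so the site was in the middle of the replicate 1 list. An additional entry in replicate 1, with a signal of 30.0, lay in coding sequence of the gene, 949 bp upstream of the neighbour evl-20.

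At eif-3.I (I:2485861-2489787, plus strand), which encodes a WD-repeat subunit, the highest entry was not at the outermost 5' end. It lay at I:2487492-2487961, in an intron, with a pooled signal of 87.4 (rank 2360), 47.2 in replicate 1 and 33.8 in replicate 2. This was the highest signal below the optimal threshold in the family. Its summit was 1866 bp downstream of the outermost 5' end and 677 bp upstream of a second annotated 5' end inside the gene. A neighbouring pooled entry with a signal of 58.0 overlapped it and lay 469 bp upstream of that second 5' end. The entry at the outermost 5' end, 260 bp upstream, had 50.8 in the pooled list, 26.2 in replicate 1 and 23.4 in replicate 2. That summit was nearer to the 5' end of the divergent gene abtm-1, 210 bp away. Replicate 2 had further entries in the window, with signals of 22.9, 18.9 and 18.6, the last at the lower end of its list, which starts at 17.9. The entry of 18.9 lay in UTR sequence at the end of eif-3.I, 190 bp upstream of ddx-10.

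**Figure D1:**
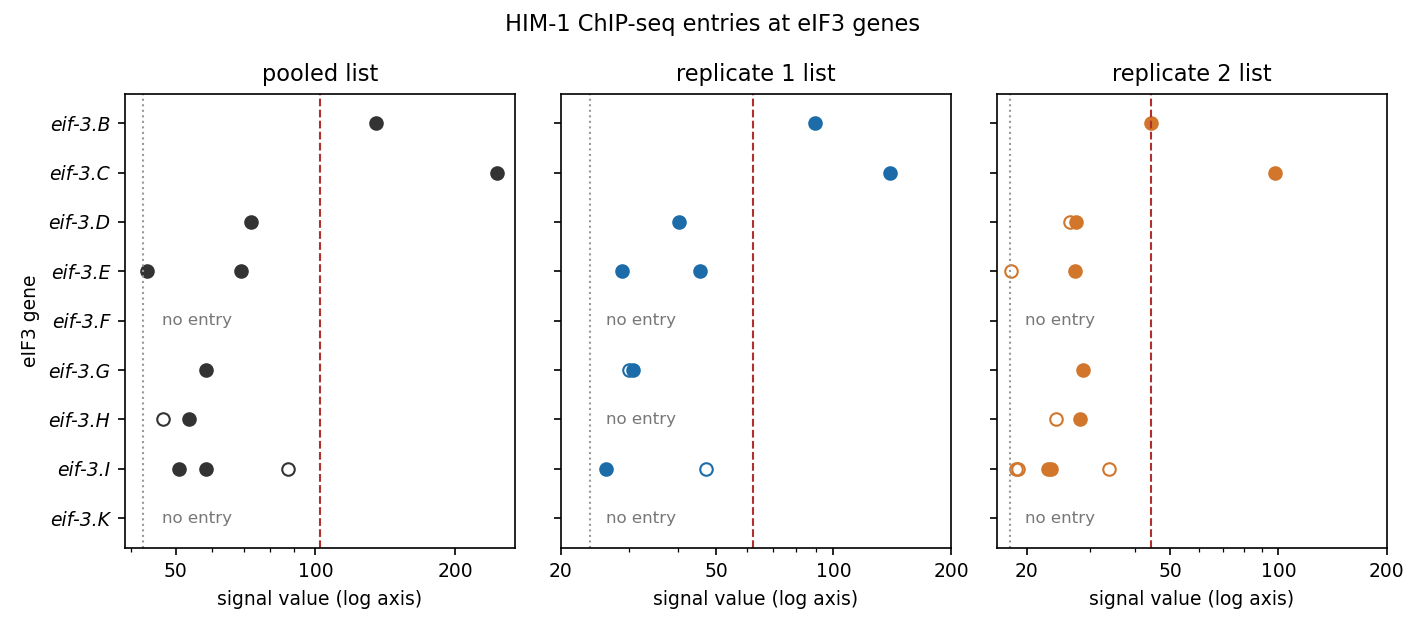
Signal values (x axis, log scale, authors' units) of every entry inside an eIF3 gene or within 1000 bp of its 5' end, 1 row per gene and 1 panel each for the pooled, replicate 1 and replicate 2 lists. Filled circles are promoter entries and open circles other entries; the dotted line is the lowest signal of the list and the dashed line the lowest of its 1797 highest entries. Only eif-3.B and eif-3.C lie to the right of the dashed line, and eif-3.B touches it in replicate 2.

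Of the subunits that animals add to the core, eif-3.D, eif-3.E and eif-3.H had weak promoter entries. eIF3d binds the mRNA cap on some transcripts in human cells. At eif-3.D (III:8969635-8971578, minus strand) the pooled entry at III:8971561-8972030 had a signal of 72.8, with 40.3 in replicate 1 and 27.4 in replicate 2. Its summit was 218 bp upstream of eif-3.D and 96 bp upstream of the divergent gene R08D7.4, in the 313 bp between them. A further entry in replicate 2, with a signal of 26.3, lay in coding sequence of eif-3.D.

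eif-3.E, whose product is a PCI-domain subunit, lies at I:10640465-10642281 on the minus strand. Its pooled entry at I:10642330-10642799 had a signal of 69.2, with 45.5 in replicate 1 and 27.2 in replicate 2, and a summit 284 bp upstream. The divergent gene B0511.17 had its 5' end 464 bp away on the other side. A second entry, 488 bp upstream, had 43.3 in the pooled list, near the lowest value of 42.4, and 28.7 in replicate 1. Its summit was nearer to B0511.17, at 260 bp in the pooled list and 258 bp in replicate 1. Replicate 2 alone had an entry in coding sequence, with a signal of 18.0.

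eif-3.H, whose product is an MPN-domain subunit, was the gene with the least even support. At I:4444719-4446613 (plus strand) the pooled list had an entry 227 bp upstream, at I:4444257-4444726, with a signal of 53.3, and replicate 2 had one with 28.1. Replicate 1 had no entry in the gene or within 1000 bp of its 5' end, and its nearest summit was 1239 bp upstream. The pooled summit was nearer to the divergent gene C41D11.3, 143 bp away. The replicate 2 summit was instead nearer to eif-3.H, at 164 bp, than to C41D11.3, at 206 bp. A pooled entry in coding sequence had 46.9, and its counterpart in replicate 2 had 24.1. The lists give no value for sites without an entry, so the replicate 1 signal here is known only to be absent from a list whose lowest value was 23.8.

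eif-3.F and eif-3.K had no entry in any list. eIF3f is, like eIF3h, an MPN-domain subunit, and loss of eif-3.K has been linked in worms to stress resistance and long life. eif-3.F (II:9331643-9333970, plus strand) lies 115 bp behind the end of wbp-2 on the same strand, and its nearest pooled summit was 6467 bp upstream. eif-3.K (V:12954002-12955229, plus strand) lies 793 bp behind pqn-68, also on the same strand. Its nearest pooled summit was 13996 bp downstream of the 5' end. Replicate 2 had one 1403 bp downstream of that 5' end, beyond the gene and outside the window, with a signal of 22.1.

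**Figure D2:**
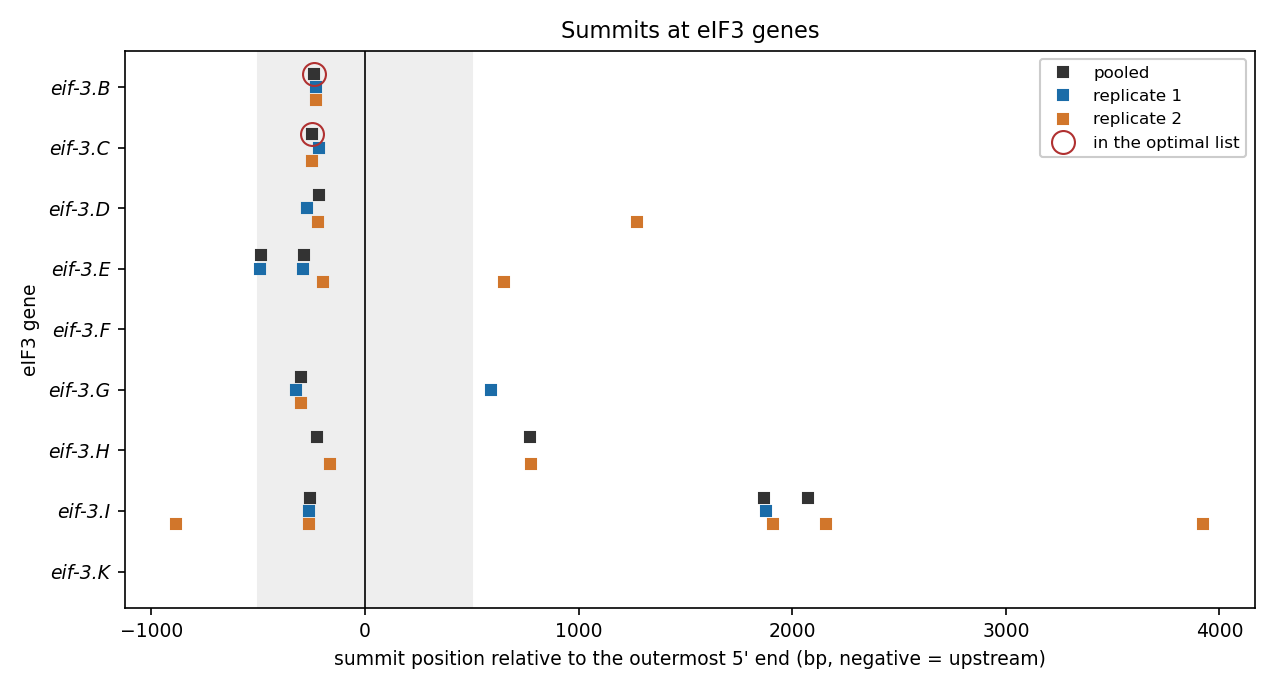
Summit positions at the 9 eIF3 genes in bp from the outermost annotated 5' end (x axis, negative is upstream), 1 row per gene, with squares for the pooled, replicate 1 and replicate 2 lists and red circles for optimal peaks. The grey band is the window of 500 bp on each side. The 7 genes with entries each have a pooled summit 218 to 300 bp upstream, and eif-3.F and eif-3.K have none.

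Each of the 7 genes with a pooled promoter entry had one upstream of its outermost 5' end. At eif-3.I the highest promoter entry, with a signal of 58.0, lay instead in an intron, 2074 bp downstream of that end. The pooled summit nearest each gene's own outermost 5' end was between 218 and 300 bp upstream in the 7 genes with an entry, with a median of 249 bp. The replicates spread more widely. In replicate 1 the highest promoter entries lay 216 to 325 bp upstream, 5 of 6 of them in the range of 200 to 300 bp, and in replicate 2 they lay 164 to 301 bp upstream, 4 of 7 of them in that range. The range was set after the members' positions had been seen. For eif-3.D, eif-3.H and eif-3.I the pooled summit nearest the outermost 5' end was closer still to the 5' end of a divergent gene. Measured to the nearest protein-coding 5' end of any gene, 5 of the 7 pooled summits lay 200 to 300 bp upstream, with a median of 238 bp. Measured in that way, 634 of 3885 promoter summits of the whole pooled list (16.3%) lay in the range. Their median was 112 bp upstream, and 68.6% were upstream at all. The whole-list count takes every promoter summit, whereas that of the members takes 1 per gene and leaves out the further promoter summits at eif-3.E and eif-3.I. Among the 763 optimal promoter summits the median was 167 bp upstream and 22.3% lay in the range. Most entries have a fixed width, with a median of 470 bp in the pooled list. The summits of the replicates at matched entries lay a median of 31 bp apart at optimal peaks and 63 bp apart at pooled entries below the optimal threshold, and at eif-3.E they lay 91 bp apart.

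**Figure D3:**
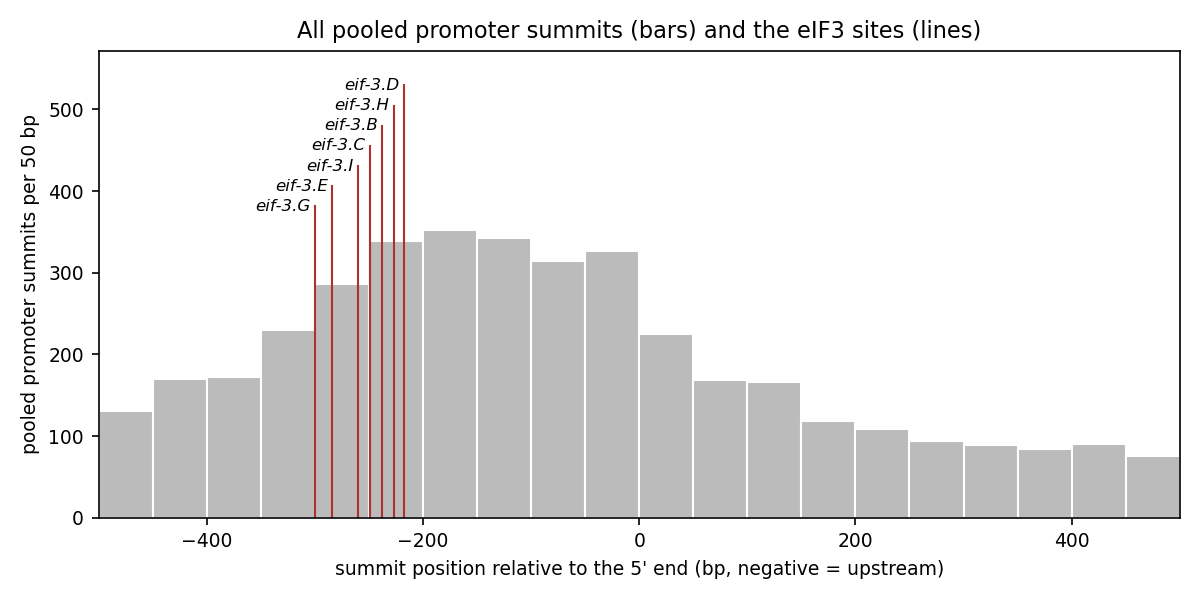
Number of pooled promoter summits per 50 bp (grey bars, y axis) by their distance from the nearest protein-coding 5' end in bp (x axis, negative is upstream). Red lines mark, for each of the 7 eIF3 genes, the pooled summit nearest its own outermost 5' end, from 300 bp upstream for eif-3.G to 218 bp for eif-3.D.

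The arrangement of neighbours differed within the family. The 4 genes with a divergent upstream neighbour, eif-3.D, eif-3.E, eif-3.H and eif-3.I, all had a weak pooled promoter entry and no optimal peak. Of the 5 genes that follow a gene on the same strand, eif-3.B and eif-3.C had an optimal peak, eif-3.G a weak entry, and eif-3.F and eif-3.K none. Outside the 9, the eIF3-related genes egl-45 and eif-3.L have a divergent neighbour, eif-3.J and cif-1 one on the same strand. None of these had a promoter entry. Over all protein-coding genes 18.3% had a pooled promoter entry and 4.50% an optimal one. The shares were not computed by arrangement, and a link with it was not tested. The family has no member on chromosome X, and 4 of the 9 genes are on I, 3 on II, 1 on III and 1 on V. No non-coding RNA gene lay within 250 bp of any summit at the 9 genes.

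At the highest entries of 6 eIF3 genes, the balance of the replicates was within the range of the lists. The gene left out is eif-3.H, whose pooled promoter entry had a match of 28.1 in replicate 2 and none in replicate 1. The lowest value of the replicate 1 list was 23.8, so no ratio could be given there and its balance could not be placed in that range. The ratio of replicate 1 to replicate 2 signal was 2.03 at eif-3.B, 1.67 at eif-3.E, 1.47 at eif-3.D, 1.42 at eif-3.C, 1.40 at the intronic eif-3.I entry and 1.07 at eif-3.G. The median of these 6 was 1.45 (SD 0.319), and over all optimal peaks it was 1.41, with 5% of ratios below 0.874 and 5% above 2.28. At pooled entries below the optimal threshold with a match in both replicates it was 1.36. The eif-3.B ratio was thus in the upper part of the optimal range, and at each of the 6 entries the signal was higher in replicate 1. Signals of both replicates were matched by an overlap of at least 1 bp with the pooled entry, and both had been called against the same control.

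**Figure D4:**
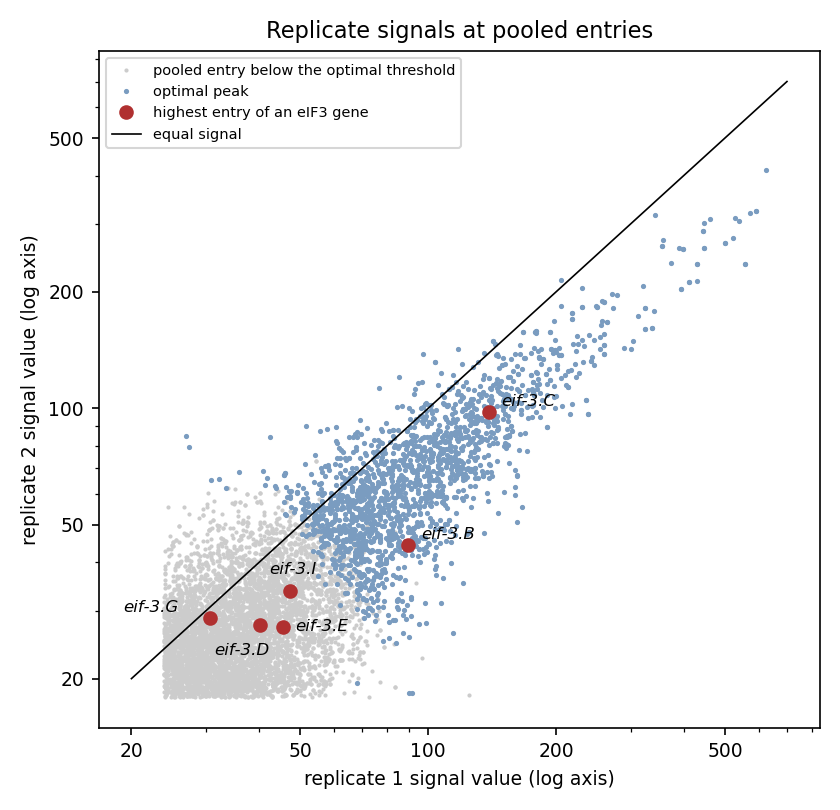
Signal in replicate 1 (x axis) and replicate 2 (y axis), both on log axes in the authors' units, at pooled entries with a match in both lists. Blue points are optimal peaks, grey points entries below the optimal threshold, and red circles the highest entry of the 6 eIF3 genes with a match in both. All 6 lie below the line of equal signal, eif-3.C and eif-3.B among the blue points and the others among the grey.

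Lists with no threshold held most of the 9 genes, whereas the 4 eIF3-related genes outside the 9 had no promoter entry in them. A promoter entry was present at 7 of 9 genes in the pooled list (77.8%, against 18.3% of all protein-coding genes), at 6 in replicate 1 (66.7% against 21.1%) and at 7 in replicate 2 (77.8% against 22.4%). With the gene body and 1000 bp included, the pooled count was again 7 of 9, and 31.2% of all genes had an entry. When each replicate was limited to its own 1797 highest entries, eif-3.B and eif-3.C were found in both, against 4.23% of all genes in replicate 1 and 4.69% in replicate 2. Among the 898 optimal peaks with the highest signal eif-3.C alone was left, 1 of 9 against 2.29%. The median of the highest promoter signal was 69.2 over the 7 genes and 64.1 over the 3664 protein-coding genes with a pooled promoter entry, so most of the family sat near the typical level of that list.

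Among 29 other initiation factor genes, 4 had a promoter peak in the optimal list (13.8%, against 4.50% of all genes). The highest was at iff-2, an eIF5A gene, with a signal of 419 and a summit 63 bp upstream. It was followed by drr-2, related to eIF4H, with 341, where the summit lay 163 bp upstream and 183 bp from the divergent gene set-16. pab-2, which encodes a poly(A)-binding protein, had 215, and ife-4, a cap-binding eIF4E gene, had 111. The pooled list held a promoter entry at 13 of the 29 genes (44.8%, against 18.3% of all protein-coding genes). Among these 29 are the eIF3-related genes egl-45 (subunit a), eif-3.J, eif-3.L and cif-1 (subunit m), of which 0 of 4 had a promoter entry in any of the lists. Without these 4, the other initiation factors had a pooled promoter entry at 13 of 25 genes (52.0%) and an optimal one at 4 of 25 (16.0%). The partner of eif-3.C in the core, egl-45, and eif-3.L had no entry at all within the gene or 1000 bp of a 5' end. eif-3.J had a pooled entry with a signal of 43.0, 598 bp upstream, and cif-1 an entry of 21.5 in replicate 2, 608 bp upstream. cif-1 lies 105 bp behind yars-2 on the same strand. The pooled promoter entry of yars-2, with a signal of 62.7, was the pooled entry nearest to cif-1, 1899 bp upstream. Whether it relates to cif-1 was not tested.

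The 6 elongation factor genes, which act at the next step of translation, had promoter peaks in the optimal list at 5 of 6 (83.3%, against 4.50% of all protein-coding genes). Their signals were 395 at eef-1A.2, 255 at eef-1G, 249 at eef-2, 213 at eef-1A.1 and 175 at eef-1B.1, all above eif-3.B. eef-1B.2 had a pooled entry with 51.2. The eef-1A.1 summit was nearer to the divergent gene rfc-4, 159 bp away, than to eef-1A.1 at 382 bp. The summits at eef-1G, eef-2 and eef-1B.1 were nearest to those genes. They also lay 150 bp from the 5' end of ctf-4, 278 bp from that of clsp-1 and 355 bp from that of aco-2, respectively. Whether these lists differ from the eIF3 genes was not tested.

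**Figure D5:**
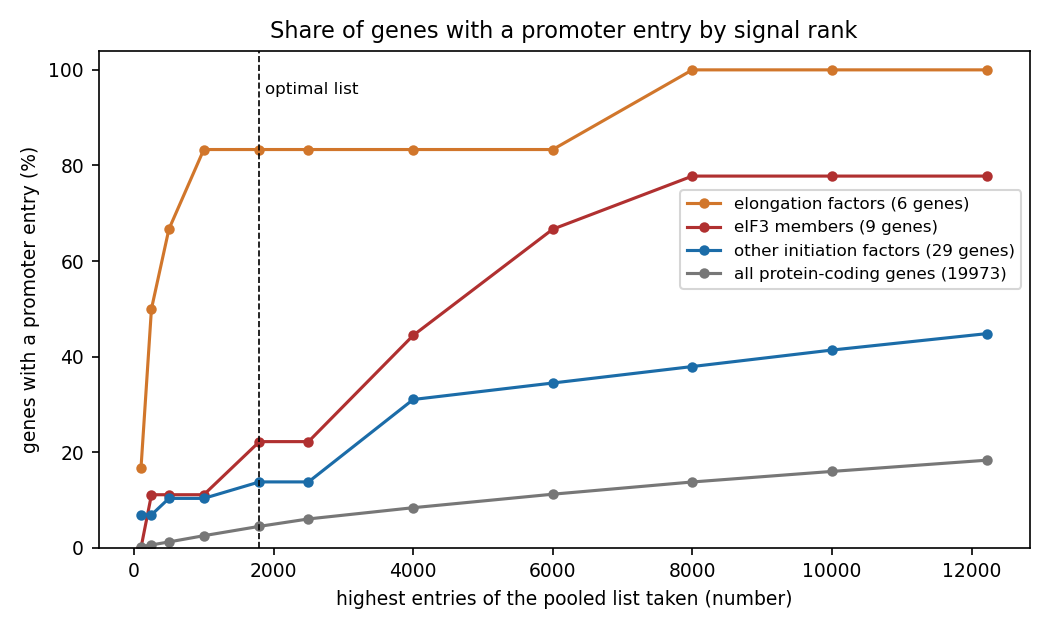
Share of genes with a promoter entry (y axis, %) when only the given number of highest entries of the pooled list is taken (x axis), for the 9 eIF3 genes, 29 other initiation factor genes, 6 elongation factor genes and all 19973 protein-coding genes. The 29 genes include the 4 eIF3-related genes outside the 9. The dashed line marks the 1797 optimal peaks. The eIF3 curve is at 22.2% there and reaches 77.8% at 8000 entries, while that of all genes goes from 4.50% to 13.8%.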

How the data were processed

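The data were narrowPeak lists in ce11 for 2 samples of 1 group: a list for each replicate, a pooled list, and an optimal list thresholded by the irreproducible discovery rate, per the text deposited with each sample. Replicate and pooled lists hold peaks and background entries. Each entry carries the authors' signal value, of unstated scale, and a −log10 q-value, also deposited by the authors. The sources used here name neither aligner nor peak caller. Read counts are not part of these lists, and depth is therefore unknown. The ce10 lists were not used.

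Summits (start plus peak offset) were placed against Ensembl release 115 (WBcel235). A promoter entry lay within 500 bp of a protein-coding 5' end. Ranks are by signal within a list. Sequence came from the RefSeq copy of the assembly. Placement was checked on 200 summits at known distances, of which 200 were recovered. Of 31 other initiation factor symbols, 29 matched the annotation (iftb-1 and eif-5 did not). All 9 members, the eIF3-related genes, other initiation factors with an optimal peak, the elongation factors and genes with a 5' end within 1000 bp of a member's summit were named. Members and lists were chosen with earlier results of these data known. Counts are descriptions with no test. Alternatives changed the window, threshold, list, annotation and overlap rule. Python 3.11.15, NumPy 2.4.6, pandas 2.3.3, SciPy 1.17.1 and matplotlib 3.10.9 were used.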

Additional observations from a re-analysis of the deposited data

How the results depend on the processing

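The count of 2 eIF3 genes with a promoter peak, eif-3.B and eif-3.C, was the same with windows of 250 and 1000 bp, with RefSeq 5' ends, with any overlap of the peak interval and in the lists without replicate 1 or without replicate 2 (2 to 2). Among the 898 optimal peaks with the highest signal it was 1, which lacks eif-3.B by construction, since fewer peaks are taken. In the whole pooled list it was 7, since background entries are taken too. The wider window of the gene and 1000 bp gave the same values, 2 to 2 without a replicate, 1 among those 898 peaks and 7 in the pooled list. The other initiation factors had 3 to 4 genes when a replicate was left out, with ife-4 lost without replicate 1, 3 with a 250 bp window and 3 with RefSeq 5' ends, and 13 in the pooled list. The median pooled signal over the 7 genes with an entry was 72.8 for the highest entry and 69.2 for the one nearest a 5' end, because the value of eif-3.I went from 87.4 to 50.8. The replicate ratio was 1.45 with either overlap rule. No paired analysis was possible because there was 1 group. The lists give no depth and no value at sites without an entry, so weak and absent signal could not be told apart there.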
